A study of Mus musculus with 95 samples.

Results

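The genes described here are 10 mouse genes of the fibroblast growth factor (FGF) and ERK pathway, taken by name from the 23377 genes of the deposited count table. They comprise the ligand genes Fgf4, Fgf5 and Fgf15, the receptor genes Fgfr1 and Fgfr2, the feedback inhibitor genes Spry2, Spry4 and Dusp6, and the transcription factor genes Etv4 and Etv5. All 10 were present in the table and were among the 15464 genes tested. Of these, Fgf5 passed the filter on low counts only through its counts in 1 genotype. Fgfr2 passed it only through its counts in 2 genotypes, Pcgf6-/- and Pcgf3/5/6-/-. Expression was measured in 14 RNA-seq libraries of E14 mouse embryonic stem cells, 2 from each of 7 genotypes, namely wild-type and lines labelled Pcgf1-/-, Pcgf2/4-/-, Pcgf3/5-/-, Pcgf6-/-, Pcgf1/2/4-/- and Pcgf3/5/6-/-. The other 81 of the 95 samples of the series were ChIP-seq samples, input included, and 67 of their peak lists were read within 2.5 kb of the annotated starts of the same genes. Besides these genotypes the lists include PCGF ChIP-seq of lines labelled Ezh1/2-/-, Ring1a-/-_Ring1bfl and Ring1a/b-/-, and the protocols describe a Ring1A-/- line with floxed Ring1B and an inducible Cre. Per the labels' protocols, the knockouts were made with Cas9, and the lines lacking several genes by further editing of knockout clones. The column headers of the count table name 1 clone for each knockout, so genotype and clone cannot be told apart. Every line, wild-type included, was kept on gelatin-coated dishes, in serum and leukaemia inhibitory factor plus 3 µM of the GSK3β inhibitor CHIR99021 and 1 µM of PD0325901, an inhibitor of MEK1/2. Nothing in the labels says that the 2 libraries of a genotype came from separate cultures, so p-values measure the spread between these libraries, which may be technical.

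FGF ligands bind receptor tyrosine kinases at the cell surface and, through adaptor proteins, RAS and RAF, lead MEK to activate the kinase ERK. Active ERK induces Etv4 and Etv5 as well as the inhibitors Spry2, Spry4 and Dusp6, which restrain the same pathway, so transcripts of these genes are widely used as a readout of signalling. In mouse embryonic stem cells FGF4 made by the cells themselves drives ERK and readies them for differentiation, and inhibition of MEK together with GSK3β keeps them in a naive state. PCGF proteins are alternative subunits of Polycomb repressive complex 1, whose RING1B subunit ubiquitinates histone H2A, while SUZ12 belongs to Polycomb repressive complex 2. The comparisons ask which of these genes differed between lines lacking different PCGF proteins, in cells whose MEK was inhibited throughout.

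The 250 bases before the start are shown for 4 of the genes, because they differ in how they lie against the RING1B peaks of wild-type cells. In Fgf5 (chr5:98682953-98683202, plus strand) and Fgf15 (chr7:152082187-152082436, plus strand) all 250 bases lay inside a wild-type RING1B peak. In Dusp6 (chr10:98725615-98725864, plus strand) and Etv4 (chr11:101646686-101646935, minus strand) 0 of them did, the peak lying downstream of the start used. In Etv4 the summit of that peak lay 9 bases from another annotated start, at base 101646175. Coordinates are those of NCBIM37 (mm9), bases are read 5′ to 3′ on the gene's strand, and capitals mark CpG dinucleotides.
Fgf5: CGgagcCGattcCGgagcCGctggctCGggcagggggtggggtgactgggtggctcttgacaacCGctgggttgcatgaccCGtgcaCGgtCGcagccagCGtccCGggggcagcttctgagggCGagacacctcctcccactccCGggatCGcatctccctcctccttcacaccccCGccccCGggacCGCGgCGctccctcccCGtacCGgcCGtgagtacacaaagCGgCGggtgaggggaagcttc
Fgf15: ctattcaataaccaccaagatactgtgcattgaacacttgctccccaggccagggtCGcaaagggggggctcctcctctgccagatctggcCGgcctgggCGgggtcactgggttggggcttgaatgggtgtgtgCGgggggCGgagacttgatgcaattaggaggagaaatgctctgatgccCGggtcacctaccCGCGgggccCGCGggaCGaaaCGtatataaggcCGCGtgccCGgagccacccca
Dusp6: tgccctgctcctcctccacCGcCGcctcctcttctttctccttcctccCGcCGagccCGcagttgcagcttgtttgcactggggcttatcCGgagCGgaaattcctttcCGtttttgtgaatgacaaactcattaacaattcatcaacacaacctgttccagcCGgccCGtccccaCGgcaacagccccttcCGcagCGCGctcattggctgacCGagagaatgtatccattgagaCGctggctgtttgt
Etv4: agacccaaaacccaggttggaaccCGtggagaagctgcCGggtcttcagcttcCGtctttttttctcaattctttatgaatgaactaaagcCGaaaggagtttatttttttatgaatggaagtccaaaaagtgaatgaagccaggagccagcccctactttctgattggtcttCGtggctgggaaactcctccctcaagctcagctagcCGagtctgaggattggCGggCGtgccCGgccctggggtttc
These stretches held 24 CpG dinucleotides in Fgf5, 15 in Fgf15, 16 in Dusp6 and 9 in Etv4. The median over the 14341 tested genes matched to the annotation was 13, with quartiles of 6 and 21. The window of Fgf15 is also an exon of Gm17685, a long non-coding gene on the other strand. Ahead of the Fgfr2 start at base 137409527 of chromosome 7, which lay in its strongest RING1B peak and was chosen for that, the same length held 34 CpG dinucleotides, more than in 94.6% of genes. Ahead of the outermost Fgfr2 start of the main group, the window used for the 10 genes, it held 2, more than in 5.22%. The E-box CACGTG, the E2F motif GCGGGAA and the ETS motif CCGGAAG, searched on both strands, matched in 0 of the 10 windows, against 8.01%, 6.25% and 11.6% of all 14341, which says only that these letters are not in these windows.

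Library totals ran from 2147968 to 7848161 counts. The shallowest were both Pcgf1/2/4-/-, both Pcgf3/5/6-/- and the first Pcgf2/4-/- library, at or under 3120754. The pair of wild-type libraries differed by less than sampling noise (chi-square per degree of freedom 0.951), whereas the other pairs gave 1.19 to 21.3. In descriptions the wild-type libraries are therefore counted as 1 sample and given as values without SD. The main tests still used them as separate libraries, and calls that were lost when they were summed are named. The gene targeted in Pcgf1-/- fell from 61.0 to 66.1 CPM in wild-type to 3.20 to 4.81 CPM, and Pcgf6 had 0 counts in Pcgf6-/-. In the line labelled Pcgf3/5/6-/-, however, Pcgf6 stood at 37.2 to 42.0 CPM against 34.3 to 36.2 CPM in wild-type, and Pcgf5 at 13.5 to 16.4 CPM against 10.8 to 13.0 CPM. In Pcgf3/5-/- Pcgf5 stood at 4.60 to 5.48 CPM. It was as low in lines not edited for it, at 4.12 to 5.36 in Pcgf1-/- and 3.77 to 5.88 in Pcgf2/4-/-, and higher in Pcgf6-/-, at 40.3 to 44.3. Pcgf3 stood at 11.4 to 12.8 CPM in Pcgf3/5-/- and 13.5 to 13.6 in the line labelled Pcgf3/5/6-/- (15.5 to 16.4 in wild-type). Pcgf2 stood at 41.0 to 54.8 CPM in Pcgf2/4-/- and 56.9 to 57.1 in Pcgf1/2/4-/- (42.9 to 48.9 in wild-type), and Bmi1, which is Pcgf4, at 12.1 to 14.1 and 13.9 to 19.9 (14.2 to 16.1). Clones were screened by PCR and Western blot per the labels' protocols, and counts over a whole gene do not show whether its protein is made. The 8 embryonic stem cell markers examined were detected in every genotype, with summed levels of 1699 to 3569 CPM against 2014 to 2019 CPM in wild-type. Pcgf1/2/4-/-, with the shallowest libraries, summed to 3354 to 3569 CPM. The most abundant gene held only 0.0646% to 0.140% of a library's counts, the larger shares lying in the shallowest libraries. The part of depth in the levels of abundant genes was not tested.

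In wild-type cells the genes covered a wide range of levels once set per kilobase of exon. On that scale Etv5 was the most abundant, at 99.5 CPM per kb. It was followed by Etv4 at 36.7, Spry2 at 35.7, Dusp6 at 30.5, Spry4 at 21.3, Fgf4 at 14.5, Fgfr1 at 6.17 and Fgf15 at 3.02 CPM per kb. Fgfr2 was at 0.155 and Fgf5 at 0.0285 CPM per kb, the latter from 1 count in both wild-type libraries together. The wild-type cells thus held transcripts of the feedback inhibitors and the Etv factors at higher levels per kilobase than of any of the 3 ligands, with MEK inhibitor in the medium. The plot of levels by genotype gives all 14 libraries for each gene.

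**Figure D1:**
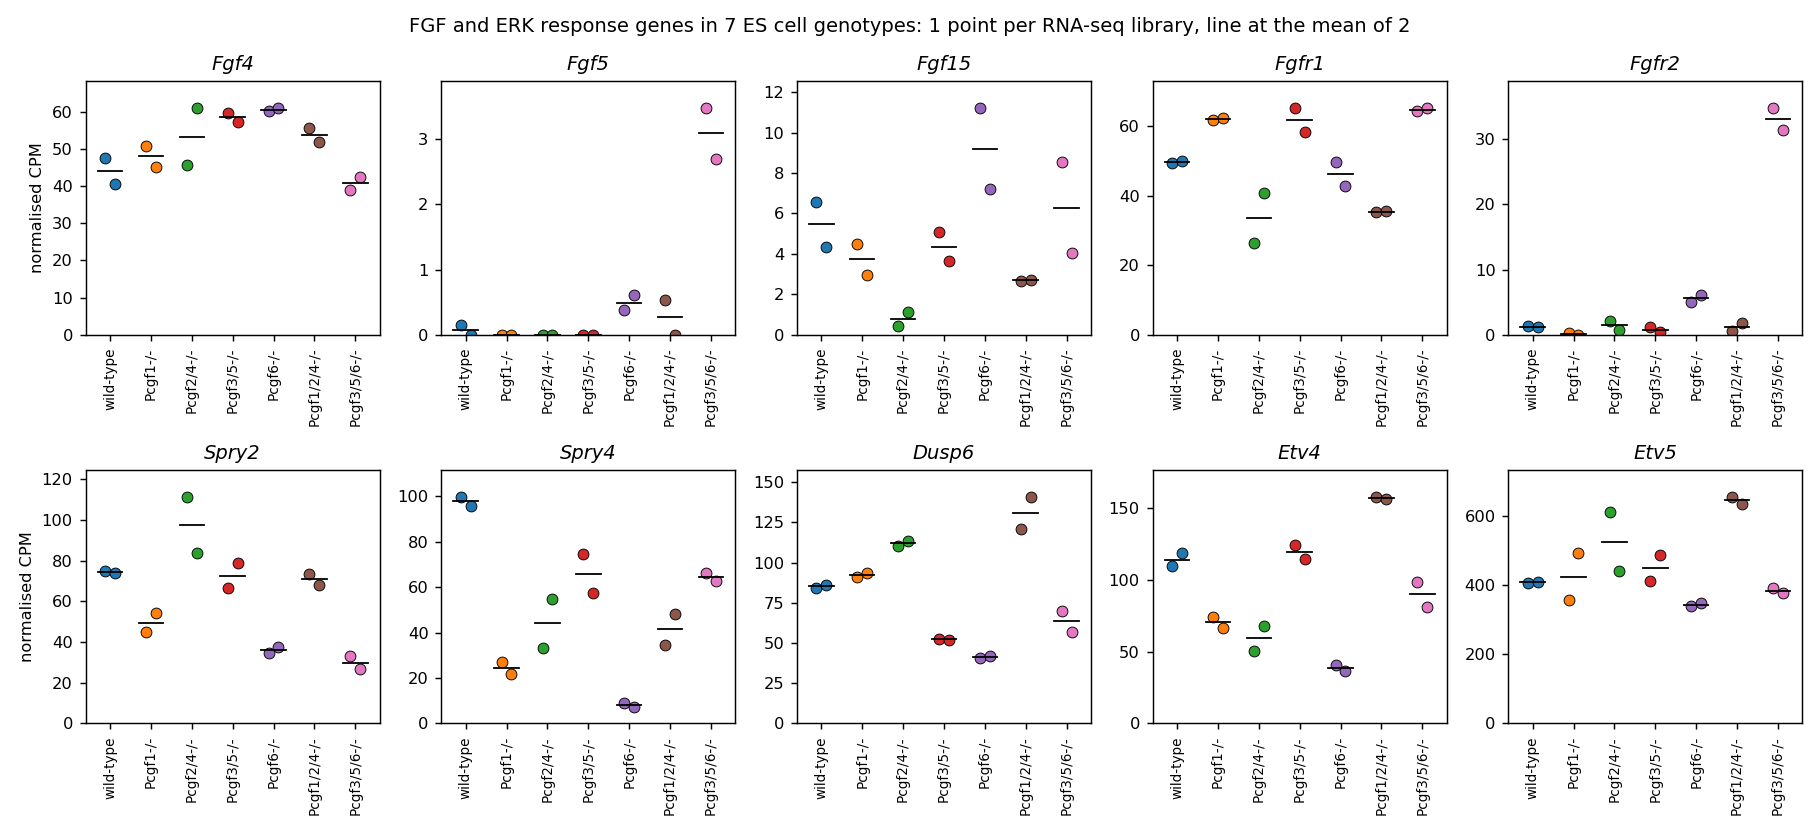
Normalised CPM of each of the 10 genes (vertical axes, 1 scale per gene) in the 7 genotypes (horizontal axes). Each point is 1 library and the line is the mean of 2. Spry4 is highest in wild-type, at 95.9 and 99.7 CPM, and Fgfr2 and Fgf5 are highest in the line labelled Pcgf3/5/6-/-.

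Against wild-type, the quasi-likelihood test of edgeR, with p-values adjusted by the Benjamini-Hochberg method over all 15464 genes, called 30 of the 60 results for these genes at an adjusted p below 0.05. In Pcgf1-/- 32.3% of all genes were called, and of the 10 genes 0 were raised (13.9% of all genes) and 4 lowered (18.4%). In Pcgf2/4-/- 21.6% of all genes were called, and 1 of the 10 was raised (8.1%) and 4 lowered (13.5%). In Pcgf3/5-/- 21.6% were called, and 1 of the 10 was raised (11.1%) and 2 lowered (10.4%). Loss of Pcgf6 called 46.5% of all genes, with 2 of the 10 raised (27.8%) and 4 lowered (18.6%). In Pcgf1/2/4-/- 37.0% were called, and 3 of the 10 were raised (14.4%) and 2 lowered (22.6%). In the line labelled Pcgf3/5/6-/- 53.3% were called, and 3 of the 10 were raised (28.0%) and 4 lowered (25.3%). Fgf5 is among the genes raised in that last line, and it entered the test only through that line. Fgfr2 is among those raised there and in Pcgf6-/-, and it entered the test only through these lines. From 3 to 7 of the 10 were called, and nothing particular to them is read from these counts. The median log2 fold change of the 10 was -0.54 in Pcgf1-/-, -0.31 in Pcgf2/4-/-, -0.17 in Pcgf3/5-/-, -0.17 in Pcgf6-/-, 0.15 in Pcgf1/2/4-/- and -0.10 in the line labelled Pcgf3/5/6-/-, where the medians over all genes lay between -0.11 and 0.05. With an offset smoothed over abundance in place of 1 factor per library, the counts raised and lowered were 1 and 4 in Pcgf1-/-, 2 and 4 in Pcgf2/4-/-, 2 and 2 in Pcgf3/5-/-, and 3 and 1 in Pcgf1/2/4-/-. RLE factors also gave 1 and 4 in Pcgf1-/- and 3 and 1 in Pcgf1/2/4-/-. Over all genes, Pcgf1/2/4-/- had 2222 raised and 3495 lowered with edgeR and 2708 raised and 2589 lowered with DESeq2.

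**Figure D2:**
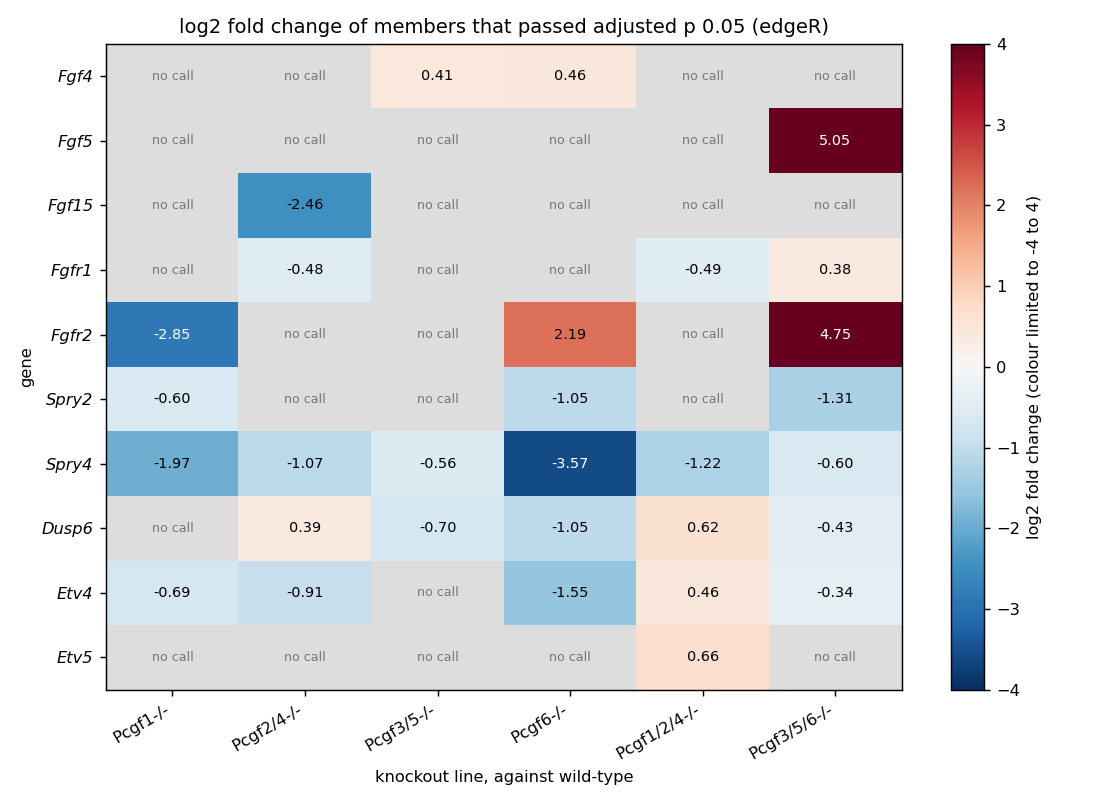
Log2 fold change against wild-type for each gene (rows) and knockout line (columns), shown where edgeR's adjusted p was below 0.05 and otherwise grey. Spry4 is lowered in all 6 columns, from -0.56 in Pcgf3/5-/- to -3.57 in Pcgf6-/-, while Dusp6 and Etv4 are lowered in some lines and raised in others.

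Among the ligands, Fgf4 varied little between genotypes. It encodes the main FGF made by embryonic stem cells (chr7:152047291-152051148). Its level was 47.5 and 40.5 CPM in wild-type, 50.7 and 45.3 in Pcgf1-/-, 45.7 and 61.0 in Pcgf2/4-/-, 59.8 and 57.3 in Pcgf3/5-/-, 60.3 and 61.0 in Pcgf6-/-, 55.5 and 51.9 in Pcgf1/2/4-/-, and 38.9 and 42.6 in the line labelled Pcgf3/5/6-/-. Both libraries of Pcgf3/5-/-, Pcgf6-/- and Pcgf1/2/4-/- lay above both of wild-type, and those of the other lines overlapped it. Fgf4 rose in Pcgf6-/- by 0.46 ± 0.12 on the log2 scale (SE, adjusted p = 0.00709) and in Pcgf3/5-/- by 0.41 ± 0.13 (adjusted p = 0.0312). The Pcgf6-/- call was lost without the second wild-type library (adjusted p = 0.105). The Pcgf3/5-/- call was lost without any 1 of its 4 libraries (adjusted p of 0.0507 to 0.274) with the wild-type libraries summed (0.0943), with DESeq2 (0.0670) and without the filter on low counts (0.0688).

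Fgf5, a ligand that marks the primed epiblast, was close to absent in 6 genotypes and rose in the line labelled Pcgf3/5/6-/-. Its gene lies at chr5:98683203-98706049. Counts were 1 and 0 in wild-type, 0 in all libraries of Pcgf1-/-, Pcgf2/4-/- and Pcgf3/5-/-, 1 and 0 in Pcgf1/2/4-/-, 3 and 4 in Pcgf6-/-, and 11 and 8 in the line labelled Pcgf3/5/6-/-. The last of these corresponds to 3.48 and 2.70 CPM, above every other library. The ratio of 19 counts to 1 after scaling for depth was 43.8 with a 95% interval of 6.96 to 1820 (exact binomial, counting error only), and the adjusted p was 0.000253 with edgeR. In Pcgf6-/- the ratio of 7 counts to 1 was 6.79 with an interval of 0.872 to 306, and the adjusted p of 0.0813 missed the threshold. Since the gene entered the test only through the line in which it is high, that call adds little to the counts themselves.

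Fgf15, a ligand gene next to Fgf4 on chromosome 7 (chr7:152082437-152086858), fell in Pcgf2/4-/- alone among the 6 comparisons with wild-type. It stood at 6.56 and 4.36 CPM in wild-type and at 0.419 and 1.15 in Pcgf2/4-/-, from 1 and 9 counts. The other lines gave 4.48 and 2.97 in Pcgf1-/-, 5.08 and 3.64 in Pcgf3/5-/-, 11.2 and 7.20 in Pcgf6-/-, 2.67 and 2.71 in Pcgf1/2/4-/-, and 8.53 and 4.06 in the line labelled Pcgf3/5/6-/-. Pcgf2/4-/- lay below every other library, and Pcgf1/2/4-/- and Pcgf6-/- also did not overlap wild-type. The change in Pcgf2/4-/- was -2.46 ± 0.53 (adjusted p = 0.00479), with an adjusted p of 0.0520 when only those 2 genotypes were fitted. In Pcgf6-/- and Pcgf1/2/4-/- the values of 0.77 ± 0.32 and -1.01 ± 0.56 did not pass (adjusted p = 0.0606 and 0.168), although the former passed in the fit of those 2 genotypes, without the second Pcgf6-/- library and with the replicate number as a block. The test of Pcgf1/2/4-/- against Pcgf2/4-/- did not pass either (1.45 ± 0.79, adjusted p = 0.186), so a difference between the double and the triple knockout was not shown. Exons of Fgf15 overlap Gm17685 on the other strand, and without a stated use of strand reads from the 2 genes cannot be told apart.

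The receptors differed from each other. Fgfr1, the main FGF receptor of embryonic stem cells (chr8:26624126-26686186), moved by at most 0.49 on the log2 scale where it was called against wild-type. Its levels were 49.5 and 49.9 CPM in wild-type, 62.0 and 62.4 in Pcgf1-/-, 26.4 and 40.9 in Pcgf2/4-/-, 65.2 and 58.5 in Pcgf3/5-/-, 49.8 and 42.9 in Pcgf6-/-, 35.2 and 35.7 in Pcgf1/2/4-/-, and 64.5 and 65.2 in the line labelled Pcgf3/5/6-/-. Only Pcgf6-/- overlapped wild-type. The rises in Pcgf1-/- (0.32 ± 0.14, adjusted p = 0.0875) and Pcgf3/5-/- (0.32 ± 0.14, 0.117) did not pass with edgeR. Both passed with smoothed offsets and in fits of the 2 genotypes alone, and that in Pcgf1-/- also with RLE factors. Fgfr1 fell by 0.48 ± 0.15 in Pcgf2/4-/- (adjusted p = 0.0311) and by 0.49 ± 0.17 in Pcgf1/2/4-/- (adjusted p = 0.0350), and rose by 0.38 ± 0.14 in the line labelled Pcgf3/5/6-/- (adjusted p = 0.0374). These 3 calls were lost with the wild-type libraries summed (adjusted p of 0.0869 to 0.104) and without either wild-type library (0.0993 to 0.126). Without its first library Pcgf2/4-/- gave -0.26 (0.116), and without its second -0.91 (0.000887), so the size there rests on 1 library. The other calls were also lost without either Pcgf1/2/4-/- library (0.162 and 0.166) or either Pcgf3/5/6-/- library (0.116 and 0.130). The direct comparison of Pcgf1/2/4-/- with Pcgf1-/- gave -0.81 ± 0.17 (adjusted p = 0.00171) and was called under every setting tried. Exons of Fgfr1 overlap Gm16159 on the other strand.

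Fgfr2, the FGF receptor expressed in primitive endoderm and trophoblast, was almost silent in wild-type cells and rose in both lines labelled as lacking Pcgf6. It stood at 1.28 and 1.13 CPM in wild-type, from 9 and 8 counts. It reached 5.10 and 6.13 CPM in Pcgf6-/- (41 and 40 counts) and 34.8 and 31.4 CPM in the line labelled Pcgf3/5/6-/- (110 and 93 counts). The remaining lines lay between 0 and 2.09 CPM, and the 2 raised lines overlapped neither these nor each other. Fgfr2 rose 4.57-fold in Pcgf6-/- (log2 2.19 ± 0.40, adjusted p = 0.000443) and by 4.75 ± 0.34 on the log2 scale in the line labelled Pcgf3/5/6-/- (adjusted p = 7.99e-08). Between these lines the difference was 5.91-fold (2.56 ± 0.26, adjusted p = 6.05e-06), and all 3 differences were called under every setting. Fgfr2 passed the filter on low counts only through these 2 lines, so the calls add little to the counts themselves. In Pcgf1-/- there were 2 counts against 17 in wild-type, a ratio of 0.123 with a 95% interval of 0.0138 to 0.517 (adjusted p = 0.0226). That call was lost without any 1 of its 4 libraries (adjusted p of 0.0628 to 0.0918). Some exons annotated to Fgfr2 overlap Ctbp2 on the same strand, through 1 transcript that starts over 1 Mb from the others.

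Markers of other cell types also moved in these 2 lines and in the other knockout lines, where Fgfr2 was not raised. Of the 4 primitive endoderm markers tested, 1 rose in Pcgf2/4-/- and 2 in Pcgf3/5-/-, and 1 fell in Pcgf1-/-. Of the 3 mesoderm markers tested, T fell in every knockout line. Kdr rose in both lines labelled as lacking Pcgf6 and did not pass in the others. Mixl1 fell in Pcgf2/4-/- and Pcgf6-/- and did not pass in the others. Nes, a neuroectoderm marker, rose in both lines labelled as lacking Pcgf6, in Pcgf1-/- and in Pcgf3/5-/-, and fell in Pcgf2/4-/-. The 7 primitive endoderm markers summed to 3.09 to 3.57 CPM in wild-type, with Gata4, Gata6, Sox17, Dab2 and Foxa2 at 0 counts. They summed to 48.7 to 55.8 CPM in Pcgf6-/- and 56.9 to 65.2 CPM in the line labelled Pcgf3/5/6-/-, where none was at 0 and Dab2 alone made up 40.5 and 45.7 CPM. In Pcgf1/2/4-/- they summed to 14.9 to 16.7 CPM, again with none at 0, of which Dab2 made up 10.4. The 6 trophoblast markers summed to 221 to 239 CPM in wild-type, 428 to 445 in Pcgf6-/- 1108 to 1140 in the line labelled Pcgf3/5/6-/- and 396 to 451 in Pcgf1/2/4-/-, led by Krt8. In both lines labelled as lacking Pcgf6, 4 of these 6 rose and 2 fell, the latter being Cdx2 (-3.80 and -1.94) and Eomes (-2.32 and -1.85), which are trophoblast transcription factors. The 5 fibroblast markers summed to 7.45 to 10.6, 24.1 to 28.4 and 35.1 to 37.3 CPM in wild-type, Pcgf6-/- and the line labelled Pcgf3/5/6-/-, led by Thy1 in both knockouts. The 5 primed epiblast markers summed to 221 to 228, 73.2 to 83.5 and 226 to 247 CPM in that order, most of it Dnmt3b. In the line labelled Pcgf3/5/6-/- Otx2 and Pou3f1 of this list rose (2.54, adjusted p = 1.92e-05, and 2.08, 0.0125), Lef1 fell (-2.04, 1.59e-08) and Dnmt3b did not pass (0.31, 0.0968). In Pcgf6-/- 0 of the 4 tested rose and 3 fell. The part of such cells in the levels of Fgfr2 and Fgf5 was not tested, and in bulk RNA fewer cells of a type and less RNA per cell cannot be told apart.

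Of the feedback inhibitors, Spry4 fell in every knockout line. It encodes a Sprouty protein that restrains signalling upstream of ERK (gene at chr18:38745922-38760922). Wild-type held 99.7 and 95.9 CPM, more than any other library. Pcgf6-/- held 9.09 and 7.20, Pcgf1-/- 27.2 and 21.9, Pcgf2/4-/- 33.1 and 54.9, Pcgf1/2/4-/- 34.7 and 48.3, Pcgf3/5-/- 74.5 and 57.5, and the line labelled Pcgf3/5/6-/- 66.4 and 62.9. No knockout library overlapped wild-type. The fall was 11.9-fold in Pcgf6-/- (log2 -3.57 ± 0.22, adjusted p = 1.80e-08) and 3.91-fold in Pcgf1-/- (-1.97 ± 0.20, adjusted p = 7.38e-06). It was -1.22 ± 0.21 in Pcgf1/2/4-/- (adjusted p = 0.000665), -1.07 ± 0.19 in Pcgf2/4-/- (0.00128), -0.60 ± 0.19 in the line labelled Pcgf3/5/6-/- (0.0161) and -0.56 ± 0.18 in Pcgf3/5-/- (0.0379). The 6 comparisons share the wild-type libraries. The calls in Pcgf1-/-, Pcgf6-/- and Pcgf1/2/4-/- held under every setting, and that in Pcgf2/4-/- under all but the fit of those 2 genotypes alone (adjusted p = 0.0532). The calls in Pcgf3/5-/- and in the line labelled Pcgf3/5/6-/- were lost with the wild-type libraries summed (0.128 and 0.0533) and without either wild-type library (0.0507 to 0.177). They were also lost without the second Pcgf3/5-/- library (0.262) or either Pcgf3/5/6-/- library (0.0625 and 0.0946), with DESeq2 (0.0892 and 0.0604), and the Pcgf3/5-/- call with the replicate number as a block (0.0581).

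The lines edited for 3 genes did not hold less Spry4 at the threshold than those edited for fewer. The line labelled Pcgf3/5/6-/- held more Spry4 than Pcgf6-/- by 2.97 ± 0.24 (adjusted p = 8.14e-07, called under every setting) and differed from Pcgf3/5-/- by -0.04 ± 0.19 (adjusted p = 0.886). Pcgf1/2/4-/- held more than Pcgf1-/- by 0.74 ± 0.24 (adjusted p = 0.0219). The latter call was lost without the second Pcgf1-/- or the second Pcgf1/2/4-/- library (adjusted p = 0.131 and 0.356). Against Pcgf2/4-/- the difference was -0.15 ± 0.23 (adjusted p = 0.657).

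Spry2, a second Sprouty gene (chr14:106291166-106296036), fell in fewer lines. It stood at 75.2 and 73.8 CPM in wild-type, 34.5 and 37.7 in Pcgf6-/-, 33.2 and 26.7 in the line labelled Pcgf3/5/6-/-, 44.8 and 54.2 in Pcgf1-/-, 111 and 84.0 in Pcgf2/4-/-, 66.4 and 79.0 in Pcgf3/5-/-, and 73.7 and 68.2 in Pcgf1/2/4-/-. The first 3 knockouts in this order lay below wild-type without overlap. Spry2 fell by 1.05 ± 0.15 in Pcgf6-/- (adjusted p = 3.89e-05) and by 1.31 ± 0.16 in the line labelled Pcgf3/5/6-/- (adjusted p = 1.46e-05), both under every setting. In Pcgf1-/- it fell by 0.60 ± 0.14 (adjusted p = 0.00548), a call lost without the first Pcgf1-/- library (0.0881). Unlike Spry4, Spry2 did not differ between the line labelled Pcgf3/5/6-/- and Pcgf6-/- at the threshold (-0.26 ± 0.17, adjusted p = 0.225).

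Dusp6, the phosphatase that removes phosphate from ERK (chr10:98725865-98730122), separated the lines into lower and higher ones. Its levels were 84.3 and 86.4 CPM in wild-type. They were lower in Pcgf6-/- (40.6 and 41.8), Pcgf3/5-/- (52.8 and 52.2) and the line labelled Pcgf3/5/6-/- (69.8 and 57.1). They were higher in Pcgf1-/- (91.1 and 93.7), Pcgf2/4-/- (111 and 113) and Pcgf1/2/4-/- (121 and 141). In the order of group means no neighbours overlapped in any library. Dusp6 fell by 1.05 ± 0.11 in Pcgf6-/- (adjusted p = 2.85e-06), by 0.70 ± 0.11 in Pcgf3/5-/- (0.000502) and by 0.43 ± 0.11 in the line labelled Pcgf3/5/6-/- (0.00576). It rose by 0.62 ± 0.11 in Pcgf1/2/4-/- (adjusted p = 0.000794) and by 0.39 ± 0.11 in Pcgf2/4-/- (0.0175), and did not pass in Pcgf1-/- (0.11 ± 0.11, 0.467). The Pcgf2/4-/- call was lost with the wild-type libraries summed (0.0836), without either of them (0.117 and 0.0866) and in a fit of those 2 genotypes alone (0.103). The call in the line labelled Pcgf3/5/6-/- was lost without its second library (0.0946) and with offsets smoothed over abundance (-0.15, adjusted p = 0.227).

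The transcription factor gene Etv4 (chr11:101631056-101646685) fell in 4 lines and rose in 1. It stood at 109 and 118 CPM in wild-type, 41.0 and 36.5 in Pcgf6-/-, 50.7 and 67.6 in Pcgf2/4-/-, 74.2 and 66.5 in Pcgf1-/-, 98.3 and 81.1 in the line labelled Pcgf3/5/6-/-, 123.9 and 114 in Pcgf3/5-/-, and 158 and 156 in Pcgf1/2/4-/-. All lines but Pcgf3/5-/- lay apart from wild-type. Etv4 fell 2.94-fold in Pcgf6-/- (log2 -1.55 ± 0.14, adjusted p = 5.23e-07), by 0.91 ± 0.14 in Pcgf2/4-/- (0.000425) and by 0.69 ± 0.13 in Pcgf1-/- (0.00135), all under every setting. The fall of 0.34 ± 0.14 in the line labelled Pcgf3/5/6-/- (0.0460) was lost with RLE factors, DESeq2, smoothed offsets, the replicate block and the wild-type libraries summed (adjusted p of 0.0598 to 0.571). It was also lost without either wild-type library or the second Pcgf3/5/6-/- library (0.0774 to 0.334). The rise of 0.46 ± 0.14 in Pcgf1/2/4-/- (0.0172) was lost with the wild-type libraries summed (0.0675), without the first wild-type library (0.113) and without either Pcgf1/2/4-/- library (0.0818 and 0.0878).

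Although Etv4 was lower than wild-type in both Pcgf1-/- and Pcgf2/4-/-, the line edited for all 3 genes held more than either. Pcgf1/2/4-/- exceeded Pcgf1-/- by 1.15 ± 0.14 (adjusted p = 2.74e-05) and Pcgf2/4-/- by 1.37 ± 0.14 (adjusted p = 1.20e-05), and both differences were called under every setting. Likewise the line labelled Pcgf3/5/6-/- exceeded Pcgf6-/- by 1.21 ± 0.14 (adjusted p = 1.66e-05, every setting).

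Etv5, the second Etv gene (chr16:22381382-22439792), was called in 1 line only. It stood at 407.6 and 409 CPM in wild-type, 358 and 492 in Pcgf1-/-, 611 and 441 in Pcgf2/4-/-, 413 and 488 in Pcgf3/5-/-, 340.4 and 347 in Pcgf6-/-, 656 and 636 in Pcgf1/2/4-/-, and 391 and 378 in the line labelled Pcgf3/5/6-/-. Pcgf1/2/4-/- lay above all other libraries. Its rise of 0.66 ± 0.20 (adjusted p = 0.0184) was the only call against wild-type, and it turned to -0.032 (adjusted p = 0.834) with offsets smoothed over abundance. It was lost too with the wild-type libraries summed (0.0903), without either of them (0.0989 and 0.0930) and without the first Pcgf1/2/4-/- library (0.0616). In Pcgf2/4-/- and Pcgf1-/- the shallower library held more Etv5, with 611 CPM at 2764111 counts against 441 at 7547984 in the former, and 492 at 4501409 against 358 at 7848161 in the latter. Both Pcgf1/2/4-/- libraries, at 2147968 and 2471117 counts, were the shallowest of all, while the Pcgf3/5/6-/- libraries, at 3120754 and 2912086 counts, lay below wild-type at 391 and 378 CPM. Etv5 had more counts per kilobase in wild-type than 95.2% of genes. The part of depth in the Etv5 values was not tested.

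Adding gene losses to a line called 19 of the 40 results between knockouts, 12 of them under every setting. From Pcgf1-/- to Pcgf1/2/4-/- 41.6% of all genes were called, and 5 of the 10 were raised (19.6%) and 1 lowered (22.0%). From Pcgf2/4-/- to Pcgf1/2/4-/- 30.0% were called, and 1 of the 10 was raised (11.6%) and 0 lowered (18.4%). From Pcgf3/5-/- to the line labelled Pcgf3/5/6-/- 51.8% were called, and 2 of the 10 were raised (27.1%) and 3 lowered (24.7%), or 4 and 3 with smoothed offsets. From Pcgf6-/- to that line 46.0% were called, and 6 of the 10 were raised (19.0%) and 1 lowered (27%). In that last comparison the genes raised were Fgf5, both receptors, Spry4, Dusp6 and Etv4. Besides the differences already given, Dusp6 and Etv5 were higher in Pcgf1/2/4-/- than in Pcgf1-/- by 0.51 ± 0.11 (adjusted p = 0.00261) and 0.61 ± 0.20 (0.0246), and Spry2 by 0.53 ± 0.16 (0.0169). Each of these 3 was lost without 1 or more of the libraries. Without the second Pcgf1/2/4-/- library they gave 0.0700, 0.0731 and 0.0704. Etv5 and Spry2 were also lost without the first Pcgf1-/- library (0.167 and 0.155) or the first Pcgf1/2/4-/- library (0.0909 and 0.132), and with smoothed offsets Etv5 gave -0.11 (adjusted p = 0.373). Fgf4 was lower in the line labelled Pcgf3/5/6-/- than in Pcgf6-/- (-0.57 ± 0.14, adjusted p = 0.00372) and than in Pcgf3/5-/- (-0.53 ± 0.14, 0.00551, lost without its first library at 0.0592). Spry2 was lower there than in Pcgf3/5-/- by 1.27 ± 0.17 (adjusted p = 2.07e-05), and Dusp6 was higher than in Pcgf6-/- by 0.63 ± 0.12 (adjusted p = 0.000665), both under every setting. Fgfr1 was higher there than in Pcgf6-/- by 0.48 ± 0.14 (adjusted p = 0.0144), a call lost without either Pcgf3/5/6-/- library (0.0649 and 0.0715) or the second Pcgf6-/- library (0.116). Fgf5 had 19 counts there against 0 in Pcgf3/5-/- and against 7 in Pcgf6-/-, the latter a ratio of 6.45 with an interval of 2.6 to 18.2. Both were called, but Fgf5 was tested only because of its counts in that line, and Fgfr2 only because of those there and in Pcgf6-/-. Fgfr2 exceeded its level in Pcgf3/5-/- 37.5-fold (5.23 ± 0.37, adjusted p = 6.94e-08, every setting). Etv4 was lower than in Pcgf3/5-/- by 0.41 ± 0.14 (0.0214), which was lost with DESeq2 (0.0755), smoothed offsets (0.226), and without the first Pcgf3/5-/- (0.117) or the second Pcgf3/5/6-/- library (0.212).

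The peak lists were read for the chromatin around the same starts. Each list is from 1 ChIP-seq sample, so the counts are descriptions, and fold enrichments are the authors' values for single peaks. In wild-type a RING1B peak lay within 2.5 kb of a start of 6 of the 10 genes (Fgf5, Fgf15, Fgfr2, Spry4, Dusp6 and Etv4), where 16.5% of all genes had one. SUZ12 peaks lay at 5 of these 6, without Etv4, where 17.8% had one. H3K4me3, the mark of active and poised promoters, lay at all 10 in each of the 5 lines with a list, where 87.6% to 89.8% of genes had it.

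The RING1B peaks with most enrichment lay at the 3 genes that were lowest per kilobase in wild-type cells. Wild-type enrichment was 22.8-fold at Fgf5, 18.3-fold at Fgfr2 and 16.7-fold at Fgf15, whose −log10 q values ran from 72.6 to 89.8. It was 8.27-fold at Dusp6, 6.31-fold at Spry4 and 5.72-fold at Etv4, with −log10 q of 18.1, 10.99 and 11.2. At a −log10 q of 20 or more, a threshold chosen after the lists were seen, Fgf5, Fgf15 and Fgfr2 were the 3 genes with a peak. H3K27me3, the mark placed by Polycomb repressive complex 2, was listed in wild-type at the same 3 genes (13.1% of all genes). H2AK119ub1 was listed there at Fgf15, Fgfr2 and Spry4 (3.69%), though in lists whose lengths ran from 1070 to 128786 peaks over the lines.

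Across the knockouts Fgf5, Fgf15 and Fgfr2 were listed in more lines than the other genes. Of the 10 genes, RING1B was listed at 4 in Pcgf1-/- (17.1% of genes), 4 in Pcgf2/4-/- (19.8%), 5 in Pcgf3/5-/- (17.3%), 6 in Pcgf6-/- (13.1%) and 3 in the line labelled Pcgf3/5/6-/- (7.59%), where the lists held 3068 to 5696 peaks. The 2 Pcgf1/2/4-/- lists held 1 and 2 of them (8.25% and 7.5%). Fgfr2 had a peak in every RING1B and SUZ12 list. Fgf5 and Fgf15 had one in every SUZ12 list and in every RING1B list except both (Fgf5) or the first (Fgf15) of Pcgf1/2/4-/-. At Fgf5 and Fgfr2, both raised in the line labelled Pcgf3/5/6-/-, that line had RING1B peaks of 13.4-fold and 6.58-fold. The wild-type peaks there were higher, at 22.8-fold and 18.3-fold. The SUZ12 peaks of that line were 15.6-fold and 7.23-fold, against 23.2-fold and 16.25-fold in wild-type. Fgf15 was not called in that line with edgeR (0.22 ± 0.40, adjusted p = 0.665), yet its peaks were also lower there than in wild-type. They were 6.97-fold against 16.7-fold for RING1B and 10.6-fold against 18.2-fold for SUZ12. A relation of these values to expression was not tested. The SUZ12 lists held 3 of the 10 genes in Pcgf1-/- (16.4%), 5 in Pcgf2/4-/- (24%), 3 in Pcgf3/5-/- (18.6%), 5 in Pcgf6-/- (15.1%), 3 in Pcgf1/2/4-/- (13.7%) and 5 in the line labelled Pcgf3/5/6-/- (13.4%). Etv5, the most abundant gene, had no RING1B or SUZ12 peak in any line.

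At Spry4 the RING1B and SUZ12 peaks were listed in 2 lines only, wild-type and Pcgf6-/-. The wild-type RING1B peak (chr18:38759847-38760991) covered the start, and that of Pcgf6-/-, the line with least Spry4 RNA, was at chr18:38759033-38761023 with 13.7-fold enrichment and a −log10 q of 43.5. In Pcgf6-/- the same promoter also had peaks of PCGF1 (6.82-fold), PCGF2 (18.1-fold) and H3K27me3 (6.84-fold), of which wild-type had the PCGF1 peak (6.73-fold). Pcgf1-/-, Pcgf2/4-/-, Pcgf3/5-/-, Pcgf1/2/4-/- and the line labelled Pcgf3/5/6-/- had no Spry4 peak in either list, although Spry4 RNA was lower than wild-type in each. H2AK119ub1 peaks were nevertheless listed there in Pcgf2/4-/- (11.5-fold), Pcgf3/5-/- (20.0-fold) and the line labelled Pcgf3/5/6-/- (18.4-fold), in lists that covered 45.6%, 79.9% and 39.1% of all genes. The H3K4me3 peak over the Spry4 start was 3442 bases wide in Pcgf6-/- and 4416 in wild-type, against 9580 to 11035 in the other 3 lines. Widths depend on the depth of each list, which was not tested.

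**Figure D3:**
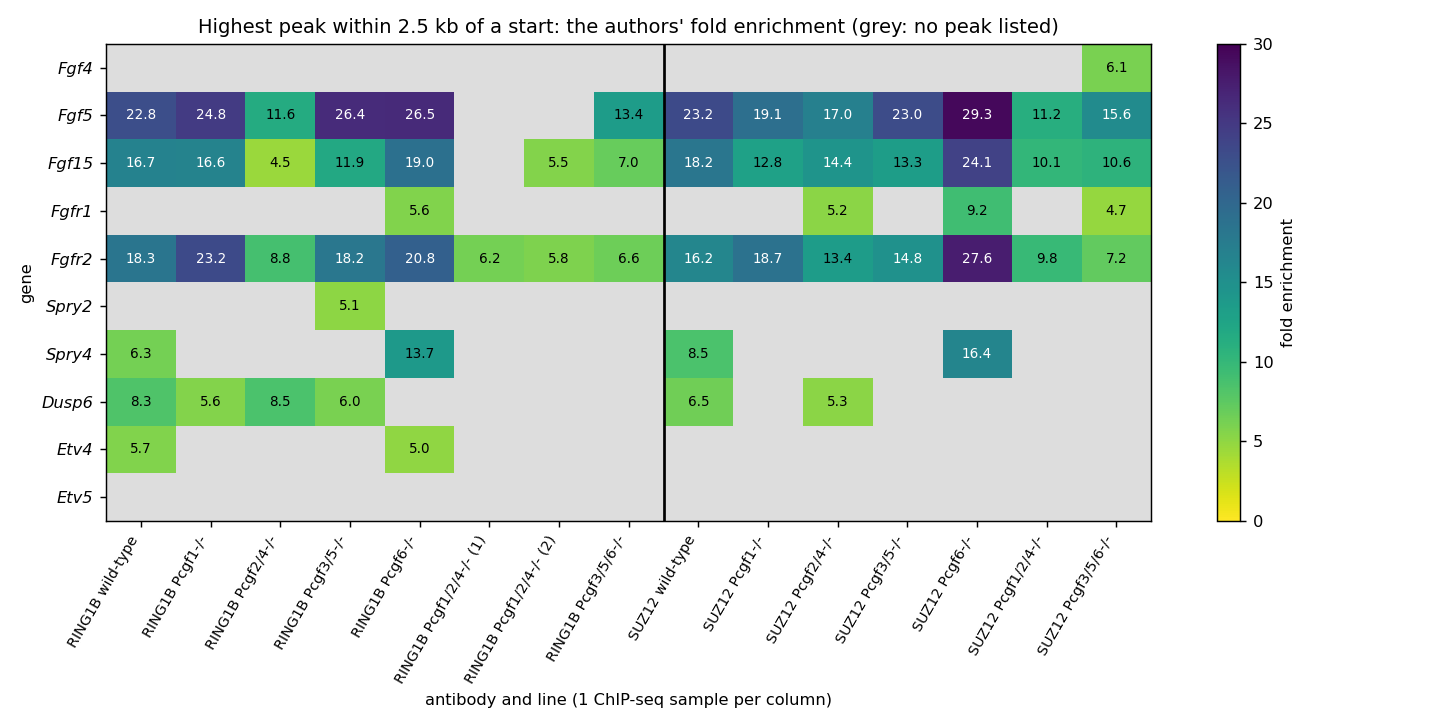
The authors' fold enrichment of the highest peak within 2.5 kb of a start (colour and printed value) for RING1B and SUZ12, by gene (rows) and line (columns, 1 ChIP-seq sample each), with grey where no peak was listed. Fgf5, Fgf15 and Fgfr2 have peaks in most columns, and Spry4 in wild-type and Pcgf6-/- only.

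Among the PCGF proteins, PCGF1 peaks lay in wild-type at Fgfr2, Spry4 and Dusp6, 3 of 10 genes, where 2.5% of all genes had one. Their −log10 q values were between 6.27 and 6.91, and none reached 20. The PCGF1 lists of the knockouts held 0 of the 10 genes in Pcgf1-/- (0.0139%), 1 in Pcgf2/4-/- (5.89%), 0 in Pcgf3/5-/- (0.83%) and 4 in Pcgf6-/- (11.5%). PCGF2 lay in wild-type at Fgf5, Fgf15, Fgfr2 and Dusp6 (14.5% of genes), and at the first 3 of these in Pcgf1-/- (14.1%) and Pcgf3/5-/- (10.3%), but at 0 in Pcgf2/4-/- (5.03%). PCGF3 lay at 0 of the 10 in wild-type (1.27%) and in each Pcgf knockout list, where from 0.0697% of genes (Pcgf3/5-/-) to 3.23% (Pcgf6-/-) had one. PCGF6 lay at 0 in wild-type (7.47%), Pcgf3/5-/- (7.05%) and Pcgf6-/- (2.11%), and at Fgf5 and Dusp6 in Pcgf1-/- (23.3%). The wild-type count of 0 of the 10 is near the share of all genes, and nothing particular to these genes is read from it. In Pcgf6-/- PCGF2 was listed at 6 of the 10, including Spry4, Etv4 and Fgfr1 (22.7% of genes), and in Pcgf2/4-/- PCGF6 was listed at 6, a list of 12842 peaks with one at 42.4% of genes. After loss of EZH1 and EZH2, the catalytic subunits of Polycomb repressive complex 2, PCGF2 was listed at 0 of the 10 (1.17%) and PCGF1 at 7 (12%). In the line labelled Ring1a-/-_Ring1bfl PCGF1 was listed at all 10 (40.3%, a list of 12735 peaks) and PCGF2 at 3 (9.84%), and in Ring1a/b-/- PCGF1 at 3 (5.39%) and PCGF2 at 0 (2.29%). PCGF3 was listed at 0 in both (0.537% and 0.258%), and PCGF6 at 1, Dusp6, in the former (8.16%) and 0 in the latter (6.67%). Of the factors measured in wild-type only, WDR5 lay at Fgfr1, Dusp6 and Etv4 (13.0%). USF1 lay at Fgfr1 and Fgfr2 (23.0%), the latter only at the outlying Fgfr2 start over 1 Mb from the others.

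The wider pathway was read from 73 further genes in 5 classes, of which 72 were in the table and 61 were tested. In Pcgf1-/- 10 were raised and 15 lowered, where 13.9% and 18.4% of all genes were. In Pcgf2/4-/- the counts were 3 and 14 (8.1% and 13.5% of all genes), and in Pcgf3/5-/- 3 and 12 (11.1% and 10.4%). In Pcgf6-/- they were 10 and 15 (27.8% and 18.6%), in Pcgf1/2/4-/- 13 and 13 (14.4% and 22.6%), and in the line labelled Pcgf3/5/6-/- 20 and 10 (28.0% and 25.3%). Their median log2 fold changes were -0.14, -0.17, -0.14, -0.12, -0.18 and 0.13 in the same order of lines, beside -0.05, 0, 0, 0.03, -0.11 and 0.05 over all genes. The counts by class rest on few genes and are read against the same shares. Of the other ligands 10 of 19 were tested, and in the line labelled Pcgf3/5/6-/- 4 of these were raised and 0 lowered (28.0% and 25.3% of all genes). In Pcgf2/4-/- 0 were raised and 4 lowered (8.1% and 13.5%). Among the 21 transducers, which carry the signal from receptor to ERK, 1 was raised and 7 were lowered in Pcgf6-/- (27.8% and 18.6%). Grb2, the adaptor of activated receptors, was the one raised there, from 44.5 to 89.1 ± 4.06 CPM (SD, n = 2, log2 1.00 ± 0.12, adjusted p = 1.24e-05). Map2k2, which encodes one of the inhibited MEK kinases, rose from 69.2 to 192 ± 10.3 CPM in Pcgf1/2/4-/- (1.47 ± 0.12, adjusted p = 1.65e-06).

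Of the 11 further feedback inhibitors tested, 3 were raised and 4 lowered in Pcgf1-/- (13.9% and 18.4%), and 0 and 4 in Pcgf2/4-/- (8.1% and 13.5%). Dusp9, an ERK phosphatase, stood at 72.5 CPM in wild-type and at 573 ± 4.18 in the line labelled Pcgf3/5/6-/- (log2 2.98 ± 0.15, adjusted p = 2.24e-09). It fell to 18.4 ± 4.13 in Pcgf2/4-/- (-1.92 ± 0.16, adjusted p = 5.62e-06) and to 28.2 ± 2.74 in Pcgf1-/- (-1.35 ± 0.15, adjusted p = 1.60e-05). Il17rd, which encodes a membrane inhibitor of FGF signalling, fell from 60.4 to 24.3 ± 0.815 CPM in Pcgf6-/- (-1.31 ± 0.15, adjusted p = 7.47e-06). Feedback inhibitors therefore changed in both directions within a line, Dusp9 and Spry2 being opposite in the line labelled Pcgf3/5/6-/-.

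Of the 9 further targets tested, 4 were raised and 3 lowered in Pcgf6-/- (27.8% and 18.6%), and 5 raised and 1 lowered in the line labelled Pcgf3/5/6-/- (28.0% and 25.3%). Jun, a component of the AP-1 factor, rose from 6.38 CPM in wild-type to 60.7 ± 4.43 in Pcgf6-/- (log2 3.25 ± 0.29, adjusted p = 6.94e-07) and to 58.2 ± 3.47 in the line labelled Pcgf3/5/6-/- (3.19 ± 0.31, adjusted p = 1.39e-06). Etv1, the third gene of the Etv4 and Etv5 group, fell from 83.1 to 30.0 ± 2.64 CPM in Pcgf6-/- (-1.47 ± 0.10, adjusted p = 5.58e-08) and to 30.7 ± 0.850 in the line labelled Pcgf3/5/6-/- (-1.44 ± 0.11, adjusted p = 2.13e-07). Ccnd1, the cyclin D1 gene, fell from 239 to 26.0 ± 1.69 CPM in Pcgf1/2/4-/- (-3.20 ± 0.15, adjusted p = 3.24e-08), where Etv4 and Dusp6 rose. Myc fell from 114 to 28.4 ± 5.27 CPM in Pcgf1-/- (-1.98 ± 0.12, adjusted p = 1.29e-07). Targets thus moved in both directions within a line: in Pcgf6-/- Jun rose while Etv1 and Etv4 fell.

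**Figure D4:**
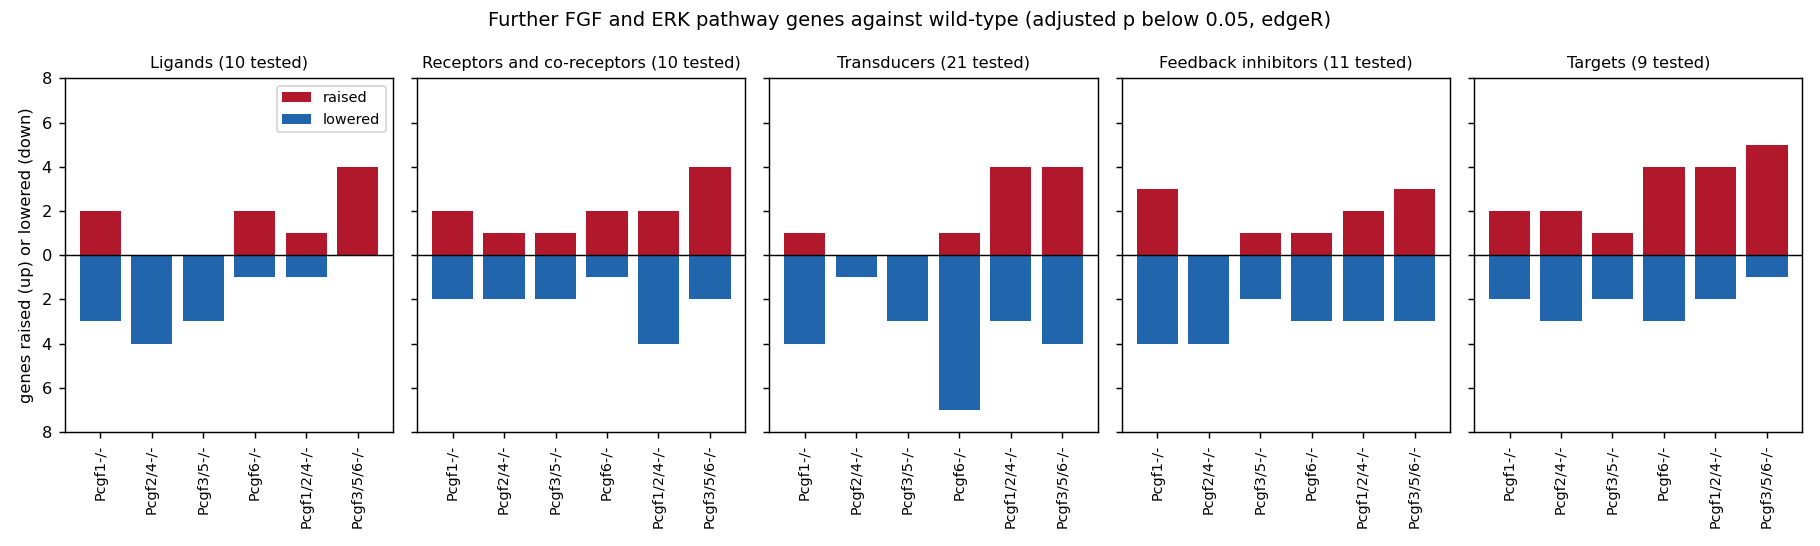
Number of further pathway genes raised (bars up) or lowered (bars down) against wild-type at an adjusted p below 0.05 with edgeR, in each of 5 classes (panels) and 6 knockout lines. The transducers show 7 lowered and 1 raised in Pcgf6-/-, and the ligands 4 raised and 0 lowered in the line labelled Pcgf3/5/6-/-.

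Over the 14 libraries, the genes whose log2 CPM followed each variable gene most closely were found among 11615 or 11616 others, as a description over libraries that share genotypes. Spry4 was followed by Cpsf4l (Pearson r = 0.974), whose group means ran from 87.5 CPM in wild-type to 13.6 in Pcgf6-/-, with 28.9 in Pcgf1-/-. Fgfr2 was followed by Prr19 (0.955) and Nelfa (0.952), and Fgf5 by Tmem45b (0.945) and Nrk (0.932). Nrk had a mean of 0.850 CPM in wild-type and 146 in the line labelled Pcgf3/5/6-/-. Fgf15 was followed by Camkv (0.935) and Pfkfb3 (0.931), both lowest in Pcgf2/4-/-, at 1.49 and 4.59 CPM against 21.0 and 34.3 in wild-type. Spry2 was followed by Grtp1 (0.965) and Fibp (0.965), Dusp6 by Crtap (0.939) and Zfp553 (0.929), and Etv4 by Slc5a1 (0.939) and Rabep1 (0.928). Between the 10 genes themselves the closest were Fgf5 with Fgfr2 (0.872), Spry4 with Etv4 (0.758) and Dusp6 with Etv5 (0.726).

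The authors' deposited table of comparisons gave the same direction for the largest changes. For Spry4 in Pcgf6-/- the authors' deposited table gave a log2 fold change of -3.54 (adjusted p = 4.26e-51). For Fgfr2 and Fgf5 in the line labelled Pcgf3/5/6-/- the authors' deposited table gave 4.85 (5.44e-24) and 5.52 (0.00704). For Etv5 in Pcgf1/2/4-/- the authors' deposited table gave 0.75 (0.00386), and for Etv4 in the line labelled Pcgf3/5/6-/- -0.27 (0.112). For Fgfr1 the authors' deposited table gave 0.38 (0.0411) in Pcgf1-/-, which edgeR did not call, and -0.4 (0.0769) in Pcgf1/2/4-/-, which edgeR called. The header of its Pcgf6-/- table names another clone number than the count table does, so the clone behind it is not certain.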

How the data were processed

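RNA was measured in 14 poly-A libraries made with a modified SMART-seq2 protocol, per the labels' protocols. The authors deposited 1 table of raw counts per gene symbol, 6 tables with their log2 fold changes and adjusted p-values against wild-type, and peak lists, per the file headers and values. In the deposited peak lists each peak has a fold enrichment and a −log10 q as given by the authors' peak caller, 1 list per sample. Per the submitters' processing notes, the tools included TopHat2 2.1.1, Bowtie 1.2.2, Picard 1.62, HTSeq 0.7.2, DESeq2 and MACS2 2.1.1 with build mm9. Their roles and the use of strand in counting were not given in the sources used here.

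Genes were filtered with filterByExpr (minimum count 10, minimum total 15) and fitted in edgeR 4.0.16 (R 4.3.3) with TMM factors, 1 coefficient per genotype and all 14 libraries in 1 quasi-likelihood fit. Tests were two-sided, and p-values were adjusted by Benjamini-Hochberg over 15464 genes in each of 10 comparisons. The spread shared by all genes, the common dispersion, came to 0.0150, or 12.3% as a coefficient of variation between libraries. An exact permutation test of 2 libraries against 2 could not pass 0.05. CPM values use TMM library sizes, and 3 counts equal 0.328 to 1.60 CPM. On simulated counts of the Pcgf6-/- comparison, run on 15464 genes, 14.9%, 70.1% and 95.5% of genes changed by 0.5, 1 and 2 on the log2 scale were recovered, with 6 false calls. For Pcgf2/4-/- the shares were 7.46%, 56.7% and 95.5%. The simulated counts used the common dispersion for every gene and genotype, so they lack the unequal spread of the real pairs of libraries. How many false calls that unequal spread gives was therefore not tested.

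The 67 peak lists used, with 863504 peaks, were read within 2.5 kb of any annotated start (GENCODE on NCBIM37), at least 1 shared base counting as a peak. H3K36me3 and knockdown lists were not used. Sequences come from the NCBIM37 genome. Of the tested genes, 14341 matched the annotation by symbol. Named were all 10 genes and, of the further pathway genes, at most 3 raised and 3 lowered per comparison with the largest change and a mean log2 CPM of at least 2. The members, pathway lists and markers were chosen with earlier results of these data known. Alternatives were RLE factors, offsets smoothed over abundance (lowess in R, span 0.3), DESeq2 1.42.0, no filter and a fit of the 2 genotypes alone. Further ones were the replicate number as a block, the wild-type libraries summed, each library left out, and other windows and thresholds for peaks. Python 3.11.15 with pandas 2.3.3 and matplotlib 3.10.9 read the peaks and drew the figures. Replicate numbers did not pair the libraries: over 21 pairs of genotypes the deviations of same-numbered libraries had correlations of -0.856 to 0.807.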

Additional observations from a re-analysis of the deposited data

How the results depend on the processing

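Of the 49 results called for the 10 genes, 47 kept their call and direction with RLE factors, 47 without the filter, 44 in fits of the 2 genotypes alone, 43 with smoothed offsets, 42 with DESeq2 and 46 with the replicate number as a block, and 20 of 30 did so with the wild-type libraries summed. The sign turned with smoothed offsets for Etv5 in Pcgf1/2/4-/-, to -0.032 against wild-type and -0.11 against Pcgf1-/-; the cause was not tested.

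The number of the 10 genes called against wild-type went with the wild-type libraries summed from 5 to 2 in Pcgf1/2/4-/-, from 5 to 3 in Pcgf2/4-/-, from 3 to 1 in Pcgf3/5-/- and from 7 to 4 in the line labelled Pcgf3/5/6-/-. In Pcgf2/4-/- it was 1 in the fit of those 2 genotypes, in Pcgf3/5-/- 1 with DESeq2, and in Pcgf1/2/4-/- against Pcgf2/4-/- 2 with smoothed offsets or no filter. The share of all genes is not given for each of these settings, so nothing particular to the 10 is read from these counts. Over all genes, the fit of 2 genotypes alone called 793 in place of 3340 in Pcgf2/4-/- and 2941 in place of 4633 in Pcgf1/2/4-/- against Pcgf2/4-/-, and summed wild-type libraries 2156 in place of 3333 in Pcgf3/5-/-.

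With each library left out, the calls over all genes and over the 10 were 2967 to 3872 and 2 to 3 in Pcgf1-/-, 1779 to 4738 and 3 to 7 in Pcgf2/4-/-, 1623 to 2076 and 1 to 2 in Pcgf3/5-/-, 5480 to 5622 and 5 to 7 in Pcgf6-/-, 2881 to 3619 and 2 to 3 in Pcgf1/2/4-/-, and 6444 to 6666 and 3 to 5 in the line labelled Pcgf3/5/6-/-. They were 3952 to 6670 and 2 to 5 in Pcgf1/2/4-/- against Pcgf1-/-, and 2642 to 6709 and 1 to 2 against Pcgf2/4-/-. The lone library was assumed to vary like those of the other groups. With the replicate number as a block, 4, 5, 2, 7, 5 and 5 of the 10 genes were called in Pcgf1-/-, Pcgf2/4-/-, Pcgf3/5-/-, Pcgf6-/-, Pcgf1/2/4-/- and the line labelled Pcgf3/5/6-/-. The shares of all genes with the block are not given here, so nothing particular to the 10 is read from these counts. The block changed single calls. The block ended the calls of Spry4 in Pcgf3/5-/- (adjusted p = 0.0581) and of Fgfr1 (0.0523) and Etv4 (0.0598) in the line labelled Pcgf3/5/6-/-, and added 1, of Fgf15 in Pcgf6-/-. Same-numbered libraries did not deviate together in all pairs of genotypes (9 of 21 over 0.1).

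At a −log10 q of 20 or more, 3 of the 10 genes had a wild-type RING1B peak in place of 6, and 0 a PCGF1 peak in place of 3. That threshold, the use of protein-coding starts only and the omission of the outlying Fgfr2 start were chosen after seeing the data. Depth limits Fgf5, Fgf15 and Fgfr2 most, which rest on 0 to 9 counts in several libraries.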
